A study of Mus musculus with 9 samples.

Results

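RAS/MAPK feedback genes and Ets targets were described as 10 genes chosen by name: the Ets transcription factors Etv1, Etv4 and Etv5, the inhibitors Spry1, Spry2, Spry4 and Spred1, the ERK phosphatases Dusp4 and Dusp6, and the early response gene Ier3. The genes were chosen with earlier results of these data known, so their counts are a description. Of the 10, 9 were found among the 18329 genes of the deposited expression table, and Dusp4 was not analysed here. All 9 passed the filter on low values (at least 1 CPM in at least 3 libraries), which 16143 genes passed. The RNA came from neuroglial progenitors of the germinal zone around the third ventricle of the brain (TVZ), taken from mice on a C57/BL6 background harvested on postnatal day 1 and given no treatment. All mice carried a transgene in which the Nestin promoter drives cyan fluorescent protein, so Nestin+ means reporter fluorescence and not Nestin protein. Flow cytometry on this reporter and on CD133 (the Prom1 product, a membrane protein) gave 3 groups of 3 libraries each: CD133+Nestin+, Nestin+ and CD133+. Whether the Nestin+ cells lacked CD133, and the CD133+ cells the reporter, is not said in the labels, and no group in these libraries is labelled with an Nf1 mutation, although the study as a whole concerns Nf1.

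When a growth factor binds its receptor tyrosine kinase, RAS is loaded with GTP and the RAF, MEK and ERK kinases are activated in turn. Active ERK induces a set of genes that includes the Pea3 group of Ets factors (Etv1, Etv4 and Etv5) and several inhibitors of the same route: Sprouty proteins act near the receptor and RAF, Spred1 recruits neurofibromin, the RAS inhibitor encoded by Nf1, to the membrane, and Dusp4 and Dusp6 remove phosphates from ERK. Transcript levels of these genes are therefore widely used as readouts of the pathway, including in neural progenitors, where fibroblast growth factors induce them.

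Levels are in CPM, or reads per library scaled to a common total, a unit read from the values themselves, and are always given in the order of sort numbers 1, 2 and 3, the number that the labels give each library, equal to its passage number. The labels do not say what this number marks, whether an animal, a litter, a day or a passage in culture. In these libraries 1 read was worth 0.0286 to 0.0344 CPM, so that a level of 3 reads was 0.0857 to 0.103 CPM, and the implied totals were about 29087000 to 35014000 reads. Fold changes are log2 differences of log2(CPM + 1) with their SE, a scale on which the change of a low gene is understated, and adjusted p-values come from limma with Benjamini-Hochberg adjustment over the 16143 genes, called at 0.05. Both sort markers had transcripts as labelled: Prom1 averaged 147 ± 32.7 CPM in CD133+Nestin+, 51 ± 10.3 in Nestin+ and 169 ± 20 in CD133+ libraries, and Nes averaged 198 ± 22.6, 173 ± 20 and 51.2 ± 10.1 CPM in the same order (SD, n = 3 each). CD133+Nestin+ replicate 2 stood apart on the second principal component, at 108 against -57.1 to 19.3 in the other 8 libraries. CD133+ replicate 2 was lowest on the first, at -78.6 against -52.2 and -53 in its group. It was also the lowest of all libraries for Etv1, Etv4, Etv5, Spry1, Spry2, Spry4 and Spred1. Deviations from the group means ran together between libraries with the same sort number, so results whose call changes when the number enters the fit as a replicate block are given with both. Nothing in the labels says that the libraries came from separate animals, so the spread behind each p-value is that of these libraries and may be technical.

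Mean levels of the 3 Ets factors and of Spry4 were highest in Nestin+ cells, and those of Ier3 in CD133+ cells. Against CD133+Nestin+ cells, however, neither the Ets factors nor Spry4 passed the test without the replicate block (limma adjusted p = 0.0665 to 0.309). Compared with CD133+ cells, Etv1, Etv4, Etv5 and Spry4 were higher in Nestin+ cells, by 2.28 to 4.35 times in mean CPM, and Ier3 was lower. In CD133+Nestin+ cells the Ets factors and the Sprouty and Spred1 transcripts lay between the other groups in the mean, and Ier3 was lower than in CD133+ cells. Thus 4 of 9 genes passed the test as higher in Nestin+ than in CD133+ cells, where 2.45% of all genes did, and 1 passed as lower, where 9.42% did. With the sort number as a replicate block the higher genes were 6, adding Spry1 and Spry2, where 6.06% of all genes passed, and the lower gene was still Ier3 (13.1%). The median log2 difference of the 9 genes was 1.19, beside -0.02 over all genes tested.

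**Figure D1:**
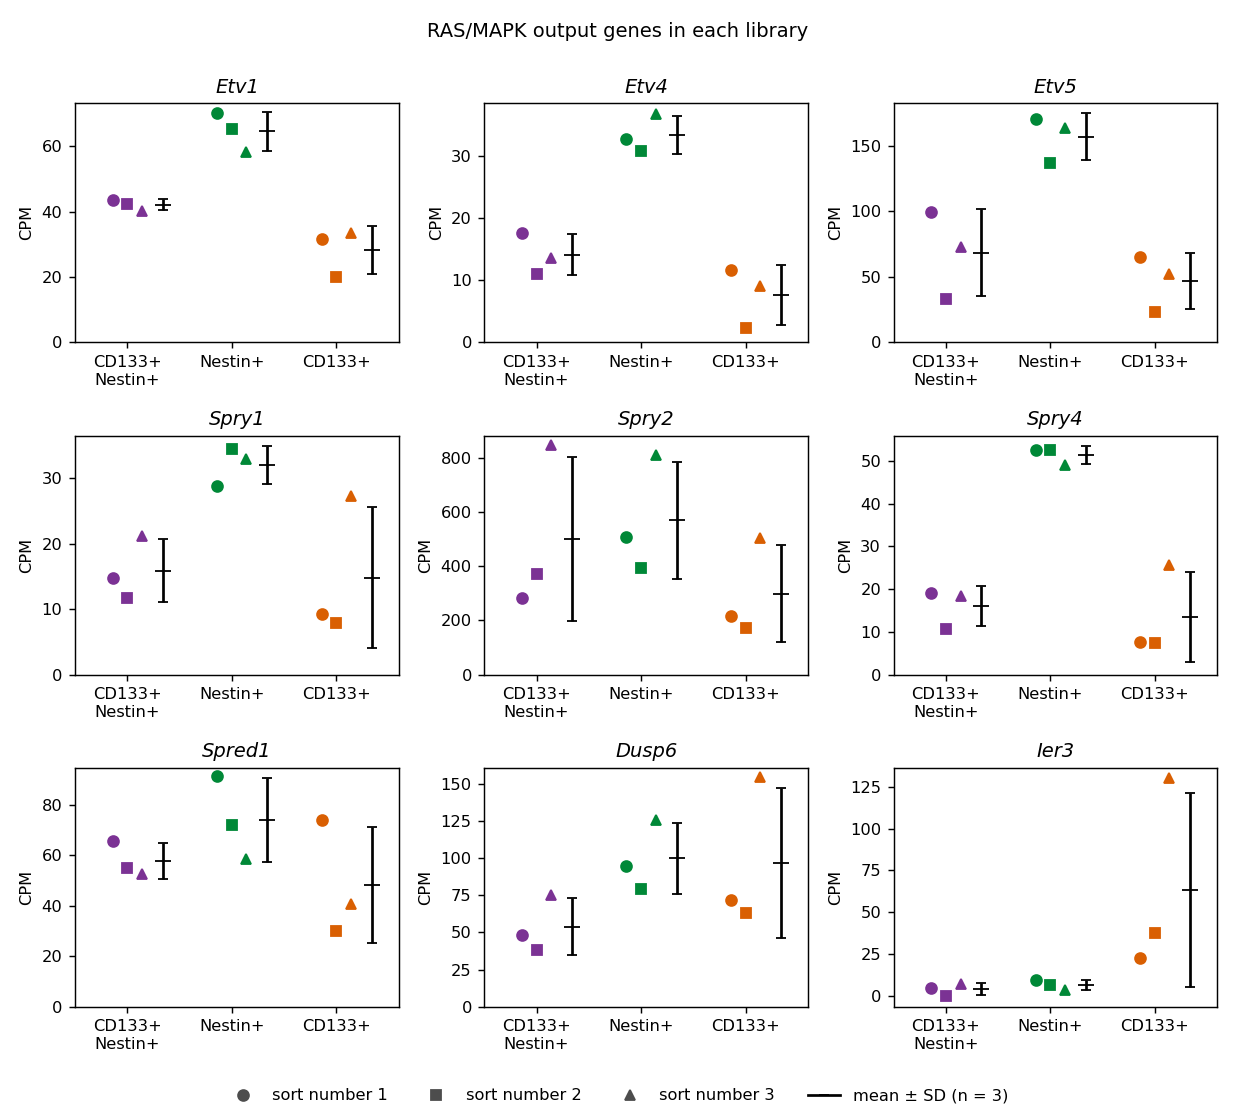
Level of each of the 9 measured genes in CPM (1 panel a gene) in the CD133+Nestin+, Nestin+ and CD133+ libraries, with a point for each library, shaped by sort number, and the mean ± SD (n = 3) beside each group. The 3 Nestin+ points of Etv4 (30.8 to 36.8 CPM) lie above all its other points, and those of Ier3 (3.33 to 9.38 CPM) lie below its 3 CD133+ points (22.4 to 130 CPM).

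The Ets factors Etv1, Etv4 and Etv5 bind GGAA cores in DNA and act downstream of fibroblast growth factor signalling in many embryonic tissues. Etv1 (chromosome 12, 38779380 to 38870484, GRCm38) stood at 43.7, 42.4 and 40.3 CPM in CD133+Nestin+, 70.3, 65.2 and 58.3 CPM in Nestin+ and 31.6, 19.9 and 33.4 CPM in CD133+ libraries. The 3 groups did not overlap in any pair, with Nestin+ highest and CD133+ lowest. Etv1 was higher in Nestin+ than in CD133+ cells, by 1.19 ± 0.25 (limma adjusted p = 0.00887). Between CD133+Nestin+ and CD133+ cells its difference was 0.59 ± 0.25 (limma adjusted p = 0.34), and between CD133+Nestin+ and Nestin+ cells -0.60 ± 0.25 (limma adjusted p = 0.309).

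Etv4 (chromosome 11, 101769742 to 101785371) had 17.6, 11 and 13.7 CPM in CD133+Nestin+, 32.7, 30.8 and 36.8 CPM in Nestin+ and 11.6, 2.3 and 9.14 CPM in CD133+ libraries. Nestin+ libraries lay above all others, while the lowest CD133+Nestin+ value, 11 CPM, lay just below the highest CD133+ value. The mean in Nestin+ cells was 4.35 times that in CD133+ cells, the largest of the genes higher in Nestin+ cells, and the log2 difference was 2.20 ± 0.45 (limma adjusted p = 0.00812). CD133+ replicate 2 was the lowest library by far, and without it Etv4 was called lower in CD133+Nestin+ than in Nestin+ cells at -1.21 (limma adjusted p = 0.0378), against an adjusted p of 0.233 with all libraries.

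Etv5 (chromosome 16, 22381309 to 22439719) had 99.4, 33.4 and 72.4 CPM in CD133+Nestin+, 171, 137 and 163 CPM in Nestin+ and 64.9, 23.0 and 52.4 CPM in CD133+ libraries. Nestin+ libraries stood above the rest, the other groups overlapped, and the libraries numbered 2 were the lowest of each group. Etv5 was higher in Nestin+ than in CD133+ cells by 1.84 ± 0.44 (limma adjusted p = 0.0186). The call was lost without CD133+ replicate 2 at 1.41 (limma adjusted p = 0.0841), and without Nestin+ replicate 1, 2 or 3 at limma adjusted p-values of 0.0573, 0.053 and 0.0658. With the replicate block Etv5 was also lower in CD133+Nestin+ than in Nestin+ cells, at -1.31 ± 0.25 (limma adjusted p = 0.0139), where the fit without it gave an adjusted p of 0.176.

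Sequences before a RefSeq start of 4 genes are shown because Etv5 and Ier3 differed in opposite directions between Nestin+ and CD133+ cells, and because Spry2 and Dusp6 varied most with the sort number. They are RefSeq promoter windows of GRCm38.p6, cut to the up to 250 bases before the start that hold no annotated exon, 5′ to 3′ on the gene's strand, with each GGAA core of an Ets site, or its reverse complement TTCC, in capitals.
Etv5 (chr16:22438369-22438618, minus strand, before an internal RefSeq start): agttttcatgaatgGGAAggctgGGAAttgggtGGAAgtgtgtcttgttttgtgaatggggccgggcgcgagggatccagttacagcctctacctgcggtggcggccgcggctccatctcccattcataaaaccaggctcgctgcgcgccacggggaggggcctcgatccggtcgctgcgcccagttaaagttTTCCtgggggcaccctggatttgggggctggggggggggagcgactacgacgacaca
Spry2 (chr14:105896820-105897069, minus strand): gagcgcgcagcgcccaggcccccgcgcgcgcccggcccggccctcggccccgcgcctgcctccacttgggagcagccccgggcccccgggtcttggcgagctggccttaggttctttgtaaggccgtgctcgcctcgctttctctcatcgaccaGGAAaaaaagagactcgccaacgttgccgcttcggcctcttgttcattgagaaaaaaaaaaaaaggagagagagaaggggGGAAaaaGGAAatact
Dusp6 (chr10:99262981-99263230, plus strand): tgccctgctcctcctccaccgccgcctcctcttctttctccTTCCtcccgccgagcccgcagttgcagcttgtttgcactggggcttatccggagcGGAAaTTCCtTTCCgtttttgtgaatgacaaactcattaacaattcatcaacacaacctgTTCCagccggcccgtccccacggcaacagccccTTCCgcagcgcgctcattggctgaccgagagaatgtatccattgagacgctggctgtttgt
Ier3 (chr17:35821463-35821683, plus strand, ending 30 bases before the start): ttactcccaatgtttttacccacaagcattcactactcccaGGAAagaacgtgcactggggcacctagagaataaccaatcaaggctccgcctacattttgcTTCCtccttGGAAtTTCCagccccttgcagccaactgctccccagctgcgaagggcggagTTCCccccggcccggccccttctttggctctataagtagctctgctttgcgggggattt
These sequences held 4 GGAA cores for Etv5, 3 for Spry2, 6 for Dusp6 and 5 for Ier3, counted on both strands. The Etv5 sequence lies inside the annotated span of the gene, and the window at the outer of its 2 RefSeq starts, with 101 bases free of exons, held 0. At least 1 such core was present in 93.4% of all 32851 windows searched over the same upstream span. None of the 4 sequences held CCGGAA (12.0% of windows), a longer Ets core that contains GGAA, nor the AP-1 motif TGANTCA (6.75%), the cyclic AMP response element core TGACG (17.8%) or TATAAA (12.4%), on either strand. Windows were found for 7 of the 10 genes. That of Spry1 held 0 bases free of annotated exons.

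Sprouty and Spred proteins are inhibitors that the pathway induces against itself. Spry4 (chromosome 18) had 19.1, 10.7 and 18.3 CPM in CD133+Nestin+, 52.5, 52.7 and 49.0 CPM in Nestin+ and 7.71, 7.33 and 25.8 CPM in CD133+ libraries. The Nestin+ values were close to each other and above all others, while CD133+ replicate 3 lay above every CD133+Nestin+ library. Spry4 was higher in Nestin+ than in CD133+ cells by 2.07 ± 0.43 (limma adjusted p = 0.00873). Between CD133+Nestin+ and Nestin+ cells the difference was -1.66 ± 0.43 (limma adjusted p = 0.0665), and it passed the test with the replicate block (limma adjusted p = 0.0254), without CD133+ replicate 3 (limma adjusted p = 0.0179) and when the 6 libraries were fitted alone (limma adjusted p = 0.0226).

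Spry1 (chromosome 3, 37639947 to 37644598) had 14.8, 11.7 and 21.2 CPM in CD133+Nestin+, 28.8, 34.5 and 33.0 CPM in Nestin+ and 9.23, 7.95 and 27.3 CPM in CD133+ libraries. As for Spry4, the Nestin+ libraries were above all others and CD133+ replicate 3 was far above the other CD133+ libraries. The difference between Nestin+ and CD133+ cells was 1.26 ± 0.41 (limma adjusted p = 0.0778). It passed with the replicate block (limma adjusted p = 0.0205), with median centring or quantile normalization (limma adjusted p = 0.0388 and 0.0385) and without CD133+ replicate 3, where it was 1.79 (limma adjusted p = 0.00946). Spry1 overlaps exons of the antisense gene Gm42922, and no source used here states whether reads were counted by strand, so its reads cannot be told apart from those of its antisense partner.

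Spry2 (chromosome 14, 105891947 to 105896819) had 283, 371 and 845 CPM in CD133+Nestin+, 506, 391 and 809 CPM in Nestin+ and 218, 173 and 504 CPM in CD133+ libraries. The groups overlapped, and in each group the library numbered 3 was the highest. Between Nestin+ and CD133+ cells the difference was 1.02 ± 0.50 (limma adjusted p = 0.252) without the block and 1.02 ± 0.22 (limma adjusted p = 0.00938) with it. Per kilobase of exon Spry2 had the highest mean level of the 9 genes in each population, at 239 CPM per kb in CD133+Nestin+, 272 in Nestin+ and 143 in CD133+ cells, and Etv1 had the lowest, at 3.17, 4.86 and 2.13 CPM per kb in the same order. Ier3 was near the bottom at 3.56 CPM per kb in CD133+Nestin+ and 5.76 in Nestin+ cells, and next after Spry2 at 56 CPM per kb in CD133+ cells.

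Spred1 (chromosome 2, 117121374 to 117182279) had 65.7, 55.1 and 52.4 CPM in CD133+Nestin+, 91.4, 72.0 and 58.6 CPM in Nestin+ and 73.9, 29.9 and 40.6 CPM in CD133+ libraries. All 3 groups overlapped, and CD133+ replicate 1 was nearly level with the middle Nestin+ library. Its difference between Nestin+ and CD133+ cells was 0.69 ± 0.33 (limma adjusted p = 0.238), and it was called only among the fits without CD133+ replicate 1, at 1.04 (limma adjusted p = 0.049), with library weights, at 0.75 (limma adjusted p = 0.0282), and in the blocked fit that left out CD133+Nestin+ replicate 2 (limma adjusted p = 0.0276). Of the 9 genes, Spred1 alone did not pass the F test over the 3 populations in the fit with the replicate block.

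Dusp6 encodes a cytoplasmic phosphatase that inactivates ERK. Dusp6 (chromosome 10, 99263231 to 99267489) had 48.1, 38.2 and 75.3 CPM in CD133+Nestin+, 94.6, 79.1 and 126 CPM in Nestin+ and 72.1, 63.2 and 155 CPM in CD133+ libraries. All CD133+Nestin+ libraries lay below all Nestin+ libraries, and the Nestin+ libraries lay within the range of the CD133+ libraries. The difference between CD133+Nestin+ and Nestin+ cells was -0.91 ± 0.37 (limma adjusted p = 0.311) without the block and passed with it (limma adjusted p = 0.0221). Between Nestin+ and CD133+ cells it was 0.14 ± 0.37 (limma adjusted p = 0.891), so unlike the Ets factors Dusp6 did not pass there, and its sign turned when CD133+ replicate 1 or 2 or Nestin+ replicate 3 was left out and with library weights.

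Ier3, an early response gene induced by growth factors and by stress, had the opposite direction to the Ets factors between Nestin+ and CD133+ cells. Ier3 (chromosome 17, 35821684 to 35822923) had 4.99, 0.0995 and 7 CPM in CD133+Nestin+, 9.38, 6.84 and 3.33 CPM in Nestin+ and 22.4, 37.7 and 130 CPM in CD133+ libraries. All CD133+ values exceeded all others, and the value of CD133+Nestin+ replicate 2 equals 3 reads. Ier3 was lower in Nestin+ than in CD133+ cells at -2.80 ± 0.78 (limma adjusted p = 0.0387), and lower in CD133+Nestin+ than in CD133+ cells at -3.71 ± 0.78 (limma adjusted p = 0.0306).

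The Ier3 calls rested on few libraries. In Nestin+ versus CD133+ cells the call was lost without CD133+ replicate 2 or 3 and without each Nestin+ library, with differences of -3.08 to -2.09 and adjusted p-values of 0.0572 to 0.151. In CD133+Nestin+ versus CD133+ cells it was lost without CD133+ replicate 2 or 3, CD133+Nestin+ replicate 2 or Nestin+ replicate 2, at -3.89 to -2.83 and adjusted p-values of 0.0573 to 0.141. With a pseudocount of 0.1 neither call held, at limma adjusted p-values of 0.156 and 0.0972, and without the filter on low genes that between Nestin+ and CD133+ cells did not (limma adjusted p = 0.0512). The authors' deposited table, in which Etv1, Etv4, Etv5 and Spry4 passed a step-up false discovery rate of 0.05 between Nestin+ and CD133+ cells, as 9.07% of all its genes did, gave Ier3 a false discovery rate of 0.26 there and 0.162 between the CD133+Nestin+ and CD133+ groups.

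**Figure D2:**
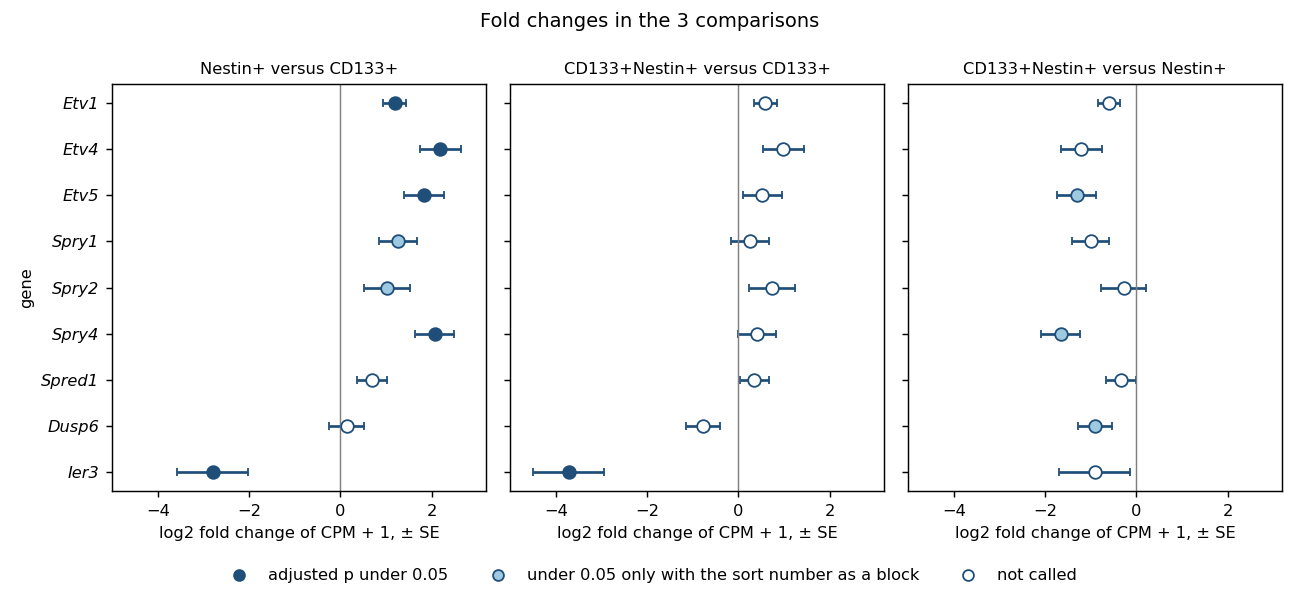
Log2 fold change of each gene with its SE (limma, log2(CPM + 1) scale) in the 3 pairwise comparisons of the populations. Dark points had an adjusted p under 0.05, pale points only with the sort number as a replicate block, and open points in neither fit; in Nestin+ versus CD133+ cells Etv4 is farthest to the right at 2.20 and Ier3 farthest to the left at -2.80.

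Calls were fewer in the comparisons of CD133+Nestin+ cells. In CD133+Nestin+ versus CD133+ cells 0 genes passed as higher (0.297% of all genes did) and 1, Ier3, as lower (2.12%), and with the replicate block the counts were again 0 (1.12%) and 1 (3.69%). At an unadjusted p under 0.05 limma had 2 higher, Etv1 and Etv4, where 3.93% of all genes were, and 1 lower, where 8.64% were. The authors' deposited table had 0 of the 9 past its false discovery rate of 0.05, where 0.955% of all its genes passed. The median difference was 0.41, beside -0.06 over all genes.

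In CD133+Nestin+ versus Nestin+ cells 0 genes passed as higher (2.87% of all genes did) and 0 as lower (0.254%). At an unadjusted p under 0.05 limma had 0 higher, where 9.06% of all genes were, and 6 lower, where 4.09% were. The authors' deposited table had 0 past its false discovery rate, where 2.59% of all its genes passed. With the replicate block 3 passed as lower, Spry4, Etv5 and Dusp6, where 1.12% of all genes did, and 0 as higher, where 4.97% did. All values of Etv1, Etv4, Etv5, Spry1, Spry4 and Dusp6 in CD133+Nestin+ libraries lay below all in Nestin+ libraries, 6 of 9 genes, where 6.21% of all genes did so. The median difference was -0.91, beside -0.04 over all genes. These comparisons share libraries with each other, so their values stand side by side and are not separate evidence.

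Without overlap between the groups, 5 of 9 genes were higher in Nestin+ than in CD133+ libraries (Etv1, Etv4, Etv5, Spry1 and Spry4), where 11.8% of all genes were, and 1 was lower, where 21.1% were. Etv1 alone was higher without overlap in CD133+Nestin+ than in CD133+ libraries (6.56% of all genes), and Ier3 alone was lower (10.9%). Over the 3 populations together, 5 of 9 genes passed limma's F test (9.5% of all genes), and 8 did with the replicate block (16.5%). The 5 were Etv1, Etv4, Etv5, Spry4 and Ier3, and the count was 1 without CD133+ replicate 2 or Nestin+ replicate 1 and 0 without Nestin+ replicate 2 or 3.

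Set on the way between the other populations on the log2 scale, CD133+Nestin+ cells stood 19.7% of the way from CD133+ to Nestin+ cells for Spry4, 20.5% for Spry1, 28.7% for Etv5, 44.9% for Etv4, 49.6% for Etv1, 51.1% for Spred1 and 72.3% for Spry2. Single libraries moved these positions widely, so the genes cannot be ordered by them. Without CD133+ replicate 2 the position was 6.67% for Etv5, 6.6% for Spry4, -5.18% for Spry1, 16.5% for Spred1, 24.6% for Etv4 and 37.7% for Etv1. Without CD133+Nestin+ replicate 2 it was 52.5% for Etv5, and without CD133+ replicate 3 it was 43.7% for Spry1 and 36.6% for Spry4. For Spry2 it was 27.3% without CD133+Nestin+ replicate 3 and 104% without CD133+Nestin+ replicate 1. Dusp6 and Ier3 lay outside the range, since CD133+Nestin+ cells had the lowest mean of both. CD133+Nestin+ and CD133+ cells did not differ past the threshold for any of the 7 genes that lay between. Without the replicate block, CD133+Nestin+ and Nestin+ cells did not either. With it, Etv5 and Spry4 were lower in CD133+Nestin+ than in Nestin+ cells.

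**Figure D3:**
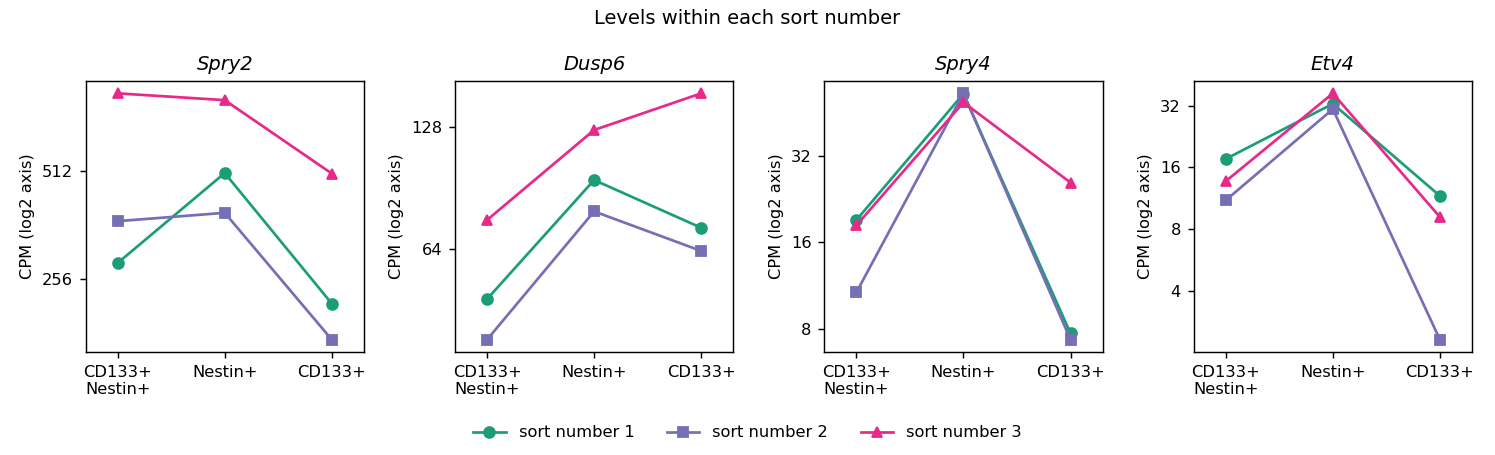
CPM (log2 axis) of Spry2, Dusp6, Spry4 and Etv4 in the CD133+Nestin+, Nestin+ and CD133+ libraries, with a line joining the libraries of each sort number. For Spry2 the line of number 3 (504 to 845 CPM) lies above the other lines in every population, and for Spry4 and Etv4 every line peaks at Nestin+.

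Levels also varied with the sort number. With population in the fit, limma's F test of the number called 3 of 9 genes, Spry2 (adjusted p = 0.0182), Dusp6 (adjusted p = 0.0322) and Etv5 (adjusted p = 0.0462), where 8.77% of all genes were called. Mean CPM over the 3 libraries with numbers 1, 2 and 3 was 335, 312 and 719 for Spry2, 71.6, 60.2 and 119 for Dusp6, and 112, 64.5 and 96 for Etv5. Spry2 and Dusp6 were thus highest in number 3, and Etv5 was lowest in number 2. The genes of the deposited table made up the smallest share of the total in number 2 of each population. That share was 87.6, 65.9 and 81.0% in CD133+Nestin+, 87.3, 70.4 and 77.6% in Nestin+ and 87.3, 77.7 and 79.3% in CD133+ libraries. Its part in the variation with the number was not tested. The count was 3 without Nestin+ replicate 2, 2 without CD133+Nestin+ replicate 2, 1 without CD133+ replicate 1 or 2 or Nestin+ replicate 3, and 0 without each of the other 4 libraries.

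Within the same number, Nestin+ libraries had more of 7 of the 9 genes than CD133+ libraries in all 3 pairs, that is of all but Dusp6 and Ier3, where 26.0% of all genes did, and less of 1, Ier3, where 31.7% did. CD133+Nestin+ libraries had more Etv1, Etv4, Etv5 and Spry2 than CD133+ libraries in all 3 pairs (18.9% of all genes) and less Dusp6 and Ier3 (24.2%). They had less than Nestin+ libraries in all 3 pairs for 7 genes, all but Spry2 and Ier3, where 20.4% of all genes did, and more in all 3 pairs for 0 genes (21.9%). The Etv4 ratio of Nestin+ to CD133+ libraries was 2.82, 13.4 and 4.02 in numbers 1, 2 and 3, so number 2 gave the largest. The Spry4 ratio was 6.82, 7.19 and 1.90, with number 3 the smallest.

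**Figure D4:**
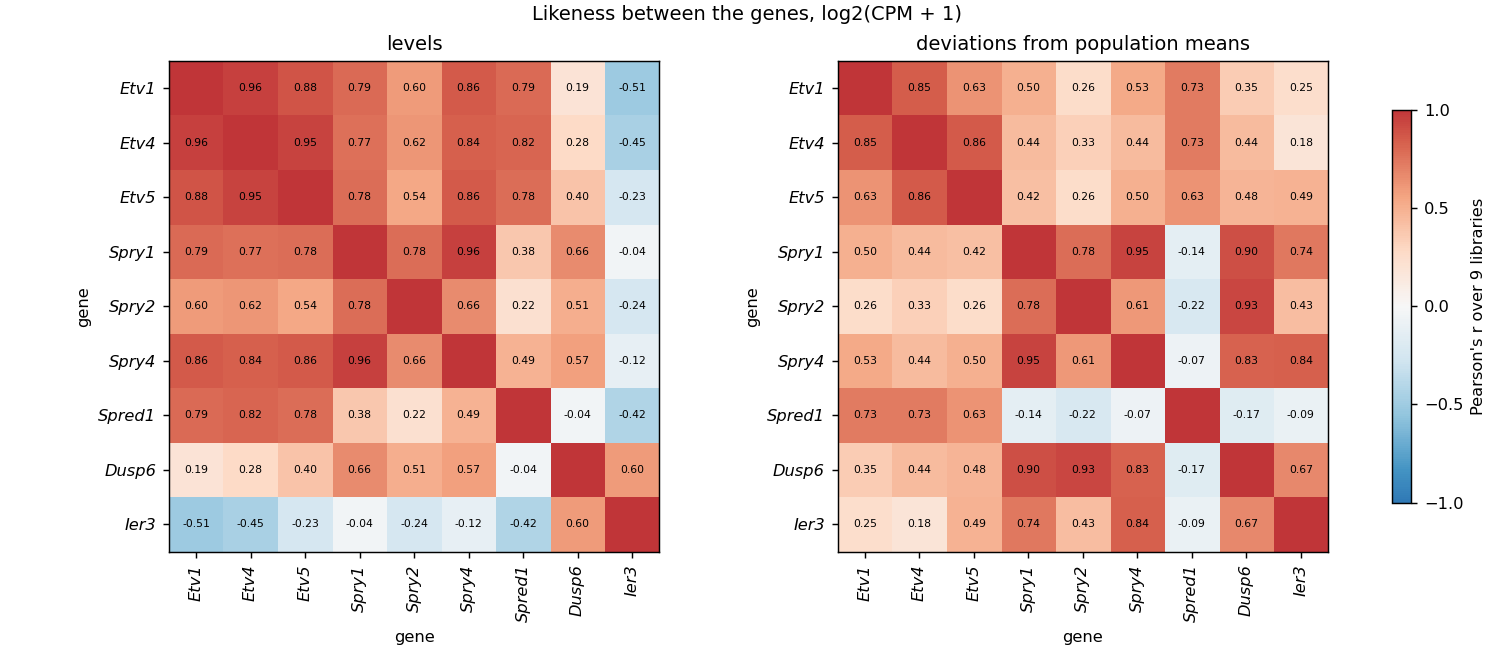
Pearson r between pairs of the 9 genes on the log2(CPM + 1) scale over 9 libraries, for levels (left) and for deviations from the population means (right). The Ets factors are close to each other among levels (Etv1 with Etv4 0.96, Etv4 with Etv5 0.95), and Spry1 with Spry4 (0.95) and Spry2 with Dusp6 (0.93) are the closest pairs among deviations.

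Across the 9 libraries, which share groups and sort numbers, Etv1 and Etv4 correlated at r = 0.96, Etv4 and Etv5 at 0.95, and Spry1 and Spry4 at 0.96. After the group means were removed, r was 0.85, 0.86 and 0.95 for the same pairs. Dusp6 varied with Spry2 at r = 0.93 and with Spry1 at 0.90 within groups, against 0.51 and 0.66 over all libraries. Spred1 stood apart from the Sprouty genes within groups, with r of -0.22 to -0.07, and was nearer to Etv1 and Etv4, at 0.73 each.

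Among 9383 genes with a mean of at least 10 CPM, the genes most like each of 6 members over the 9 libraries were these. Etv1 was most like Lrrtm1 (r = 0.992), Sall3 (0.984) and Wasf1 (0.983). Etv4 was most like Cspg5 (0.993), Abtb2 (0.988) and Efs (0.978), and Etv5 was most like Ppp1r14b (0.993), Itgav (0.99) and Fxyd6 (0.983). These lists hold none of the other Ets factors. For Spry4 the closest gene was its relative Spry1 (0.961), before Slitrk2 (0.952) and Jarid2 (0.948). Dusp6 was most like Klhl18 (0.946), Map4 (0.934) and Bcat2 (0.924), while Ier3 was most like Lama4 (0.982), a laminin chain of vessel walls, Ppic (0.976) and Flvcr2 (0.976).

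Markers of other cell types moved with the same groups. Summed levels of the 6 oligodendrocyte precursor markers were 113 to 451 CPM in CD133+Nestin+, 577 to 1067 CPM in Nestin+ and 59.9 to 139 CPM in CD133+ libraries, and those of the 5 tanycyte markers (glia of the ventricle floor) were 85.2 to 169, 270 to 324 and 51.6 to 63.2 CPM in the same order. Over the libraries these sums correlated with Etv4 at r = 0.90 and 0.89. The 5 neuron markers found of 6 summed to 55.7 to 141, 131 to 184 and 29.5 to 97.4 CPM (r = 0.93 with Etv4), and the 7 radial glia markers to 3745 to 9106, 7567 to 13250 and 2173 to 6398 CPM (r = 0.88). That list holds both sort markers, Nes and Prom1, and its sum is carried by Fabp7 and Slc1a3. Not all members ran the same way: Prom1 and, without passing the test, Vim (576 ± 133 against 638 ± 197 CPM) and the neuron marker Rbfox3 (4.16 ± 0.928 against 6.03 ± 0.72 CPM) had lower means in Nestin+ than in CD133+ libraries (SD, n = 3 each). In contrast, the 6 ependymal markers summed to 692 to 959, 92.3 to 105 and 773 to 1783 CPM (r = -0.89).

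Like Ier3, markers of blood vessels and immune cells were highest in CD133+ libraries. The 5 endothelial markers found of 7 summed to 27 to 44.6 CPM in CD133+Nestin+, 15.4 to 25.5 CPM in Nestin+ and 451 to 887 CPM in CD133+ libraries (r = 0.82 with Ier3), and 2 of their 45 values were under 3 reads, Cldn5 being lowest at 0.0618 CPM in Nestin+ replicate 3. The 5 mural and fibroblast markers found of 6 summed to 87.9 to 155, 58.3 to 92.5 and 712 to 1448 CPM (r = 0.84), the 7 microglia and macrophage markers to 34.9 to 265, 28.2 to 86.2 and 814 to 2309 CPM (r = 0.72), and the 5 erythroid markers to 60.6 to 118, 24.4 to 344 and 783 to 1537 CPM (r = 0.76). Within the CD133+ libraries, where Ier3 rose from number 1 to 3, the endothelial sums were 451, 591 and 887 CPM and the mural sums 712, 846 and 1448 CPM. The microglia sums there were 2309, 814 and 1091 CPM and the erythroid sums 1537, 783 and 1060 CPM, so these did not rise with Ier3. Markers of vessels were not alone in rising there. Among the immediate early genes taken up below, Atf3 had 5.65, 16.6 and 56.4 CPM and Fos 258, 400 and 2311 CPM. Ier5 did not rise in order, at 6.56, 3.91 and 7.64 CPM. The part of the cell types, or of the immediate early genes, in the differences of the Ets factors, Spry4 or Ier3 was not tested. In such bulk libraries fewer cells of a type and less RNA per cell cannot be told apart.

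**Figure D5:**
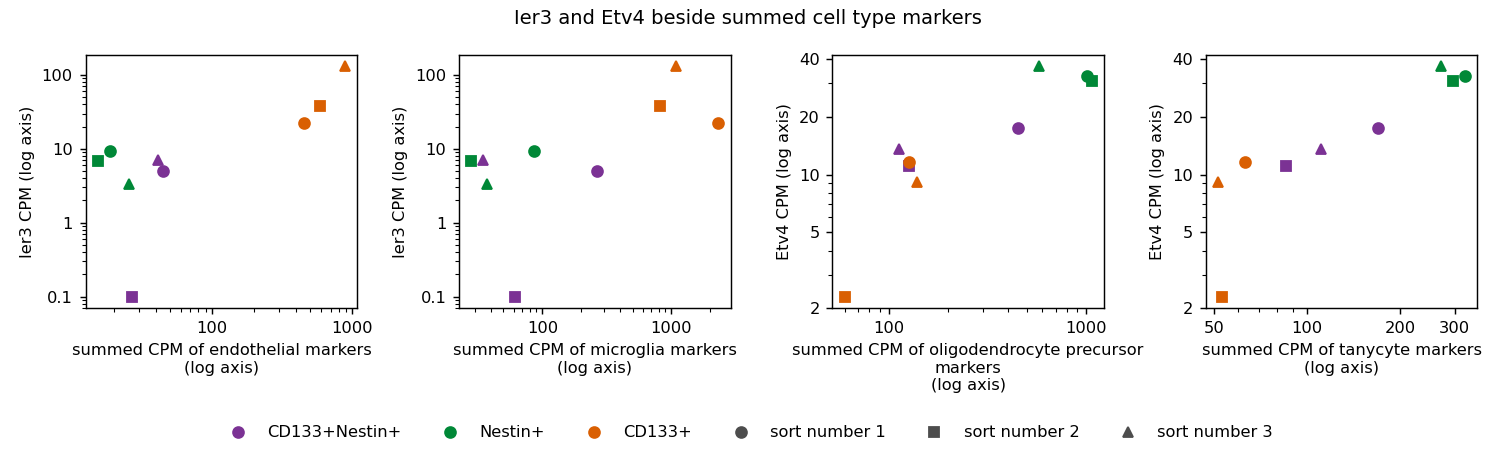
CPM of Ier3 against the summed CPM of endothelial and of microglia markers, and of Etv4 against that of oligodendrocyte precursor and of tanycyte markers (log axes), 1 point a library, coloured by population and shaped by sort number. The 3 CD133+ points lie at the upper right for Ier3 and the 3 Nestin+ points at the upper right for Etv4.

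Other genes of the pathway were taken from lists chosen by function. Their counts stand beside 2.45% of all genes called higher and 9.42% lower in Nestin+ than in CD133+ cells. Among 7 measured other feedback inhibitors and phosphatases, 2 were higher in Nestin+ than in CD133+ cells and 0 lower. They were Spred3, a Spred family gene, at 12.5 ± 9.1 CPM in Nestin+ against 1.3 ± 0.414 CPM in CD133+ libraries (log2 2.26 ± 0.57, limma adjusted p = 0.025), and Lrig1, which limits receptors of the epidermal growth factor family, at 137 ± 11 against 61.4 ± 25.5 CPM (1.24 ± 0.33, limma adjusted p = 0.0309) (SD, n = 3 each). Of 7 other ERK target genes 0 were higher and 1 lower, Plaur, the urokinase receptor, at -2.62 ± 0.51 (limma adjusted p = 0.00612). The 10 immediate early genes had 0 higher and 1 lower, Atf3, a stress-induced factor, at -3.45 ± 0.94 (limma adjusted p = 0.0355). Some of them varied widely with the sort number. Fos had 179, 530 and 1613 CPM in CD133+Nestin+, 225, 496 and 600 CPM in Nestin+ and 258, 400 and 2311 CPM in CD133+ libraries. Not all rose in number 3: Ier5 had 5.17, 4.41 and 4.31 CPM in CD133+Nestin+ libraries. A link to the levels of Spry2 or Dusp6 in number 3 was not tested.

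Of the 25 core genes from RAS to ERK and their adaptors, 0 were higher and 1 lower in Nestin+ than in CD133+ cells, Shc1, an adaptor of receptor tyrosine kinases, at -1.53 ± 0.34 (limma adjusted p = 0.0131). Upstream, 3 of 13 measured receptor tyrosine kinases were higher, Ntrk3 at 2.04 ± 0.31 (limma adjusted p = 0.00162), Pdgfra at 3.90 ± 0.63 (limma adjusted p = 0.00238) and Fgfr3 at 2.02 ± 0.36 (limma adjusted p = 0.00379), and 1 was lower, Pdgfrb at -2.64 ± 0.38 (limma adjusted p = 0.00112). Pdgfra is also 1 of the oligodendrocyte precursor markers and Pdgfrb 1 of the mural markers above. Fgfr3, a receptor for fibroblast growth factors, averaged 146 ± 13.9 CPM in CD133+Nestin+, 302 ± 116 in Nestin+ and 74.9 ± 29.7 in CD133+ libraries (SD, n = 3 each).

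Among 13 measured genes of the ligand list, which includes the intracellular homologues Fgf13 and Fgf14, 2 were higher in Nestin+ than in CD133+ cells, Pdgfc at 1.68 ± 0.29 (limma adjusted p = 0.00332) and Fgf10, also a tanycyte marker, at 1.25 ± 0.36 (limma adjusted p = 0.0461). Of 13 other Ets family factors measured, 0 were higher and 4 lower in Nestin+ than in CD133+ cells: Fli1 at -3.52 ± 0.32 (limma adjusted p = 8.7e-05), Ets1 at -3.01 ± 0.48 (limma adjusted p = 0.00203), Elk3 at -1.32 ± 0.25 (limma adjusted p = 0.0058) and Spdef at -2.07 ± 0.48 (limma adjusted p = 0.0173). At an unadjusted p under 0.05, limma had 0 of the 13 higher and 6 lower, and over the 7 lists together 15 of 88 genes higher and 12 lower. The share of all genes at that threshold is not given for this comparison, so these counts have no background. Fli1 and Ets1 are known for roles in endothelial and blood cells, whose markers were higher in CD133+ libraries.

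In CD133+Nestin+ versus CD133+ cells these 7 lists had 0 higher calls (6 at an unadjusted p under 0.05 in limma) and 4 lower (12), Fli1 at -2.50 ± 0.32 (limma adjusted p = 0.00237), Ets1 at -3.02 ± 0.48 (limma adjusted p = 0.00717), Elk3 at -1.16 ± 0.25 (limma adjusted p = 0.0357) and Pdgfrb at -1.72 ± 0.38 (limma adjusted p = 0.0376). Among all genes 0.297% were called higher there and 2.12% lower, with 3.93% and 8.64% at the unadjusted threshold. In CD133+Nestin+ versus Nestin+ cells 1 was higher, Kitl, the ligand of the receptor Kit, at 1.07 ± 0.26 (limma adjusted p = 0.0483), and 3 were lower. These were Ntrk3 at -1.50 ± 0.31 (limma adjusted p = 0.0263), Pdgfra at -2.96 ± 0.63 (limma adjusted p = 0.0312) and Tgfa, a ligand of the epidermal growth factor receptor, at -1.75 ± 0.42 (limma adjusted p = 0.0479). In that comparison 2.87% of all genes were called higher and 0.254% lower. With the replicate block the counts moved most among the receptors, to 6 higher in Nestin+ than in CD133+ cells and 4 lower in CD133+Nestin+ than in Nestin+ cells, and among the immediate early genes, to 4 lower in Nestin+ than in CD133+ cells. They moved to 2 receptors higher and 2 core genes lower in CD133+Nestin+ than in CD133+ cells, to 2 core genes lower in Nestin+ than in CD133+ cells, and by at most 1 gene in the other lists. The block also raised the shares of all genes, to 6.06% higher and 13.1% lower in Nestin+ than in CD133+ cells. They were 1.12% and 3.69% in CD133+Nestin+ versus CD133+ cells, and 4.97% and 1.12% in CD133+Nestin+ versus Nestin+ cells.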

How the data were processed

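Libraries of total RNA, 9 in all, were read on an Illumina HiSeq according to the labels' protocols. Tools named in the submitters' processing notes, without their roles, are STAR 2.5.3a, Partek 8.0, bcl2fastq and limma, and the genome build named is mm10. The sources used here do not give the counting, its annotation or its strand setting. The unit of the deposited table was inferred from its values, which fit CPM that the authors offset by 0.0001. Its genes account for 65.9% to 87.6% of each library's total. Among low values, 43.2% to 56.6% were a whole number of reads within 0.02 reads, so a count test could not be used. A floor of 3 reads covers counting error only. A second deposited table gives the authors' p-value, false discovery rate and ratio of group means for every pair of populations, per the file headers.

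The log2(CPM + 1) of the 16143 of 18329 genes that reached 1 CPM in at least 3 libraries entered limma 3.58.1 (R 4.3.3). All 3 group means were fitted together with trended and robust variances on 6 residual degrees of freedom, and p-values were adjusted by the Benjamini-Hochberg method and called at 0.05. The procedure was tested on simulated data. The genes and the lists were chosen with earlier results of these data known. All members are named, with up to 4 called genes of smallest adjusted p from each list and comparison, any gene needed to account for a count of 5 or fewer, and for 6 members the 3 genes of highest Pearson r. Gene positions come from GENCODE M21 (GRCm38, which is mm10), and promoter windows from RefSeq GRCm38.p6. Python 3.11.15, pandas 2.3.3 and matplotlib 3.10.9 were used for tables and figures.

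Libraries with the same number deviated together from their group means, at r = 0.204 to 0.73 in 9 pairs, against -0.527 to 0.314 in 18 pairs with different numbers. The main fit left the number in the error, and only the replicate block treated the libraries as paired by number. The labels give the shared number but not what it marks, so the reason for the block rests on these deviations. Results were recomputed with the replicate block, with 0.1 as the pseudocount, with all genes or only those past 5 CPM, after median centring or quantile normalization, with library weights, with only the 6 libraries compared, without a trended or robust prior, and without each library in turn.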

Additional observations from a re-analysis of the deposited data

How the results depend on the processing

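Higher levels of Etv1, Etv4 and Spry4 in Nestin+ than in CD133+ cells kept direction and call under every alternative run. The replicate block raised the F test count over the 3 populations to 8 members, and the number lower in CD133+Nestin+ than in Nestin+ cells to 3, and changed no other member count by over 1.5 times. The block without CD133+Nestin+ replicate 2, chosen after seeing the data, gave 8 members by the F test, 7 higher in Nestin+ than in CD133+ cells and 4 lower in CD133+Nestin+ than in Nestin+ cells. A pseudocount of 0.1 gave 3 members by the F test and 0 lower in both comparisons with CD133+ cells, and no filter gave 0 lower in Nestin+ than in CD133+ cells. With the 6 libraries of a pair alone 0 were lower in CD133+Nestin+ than in CD133+ cells, and 1, Spry4, was lower in CD133+Nestin+ than in Nestin+ cells, as it was with median centring. For the sort number, quantile normalization and no trend or robust prior gave 1 member each, and the number as the only factor gave 0; the cause was not tested.

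Leaving out 1 library gave 0 to 5 members by the F test, 0 to 3 for the sort number, 3 to 5 higher and 0 to 1 lower in Nestin+ than in CD133+ cells, 0 to 1 lower in CD133+Nestin+ than in CD133+ cells, and 0 to 1 lower in CD133+Nestin+ than in Nestin+ cells. Over all genes the same fits gave 150 to 730 higher and 893 to 2034 lower in Nestin+ than in CD133+ cells. Signs turned only for differences that were not called. Dusp6 between Nestin+ and CD133+ cells was -0.49 with library weights and -0.11 to 0.53 without 1 library, including -0.01 without CD133+ replicate 1 and -0.04 without Nestin+ replicate 3. Spry1 between CD133+Nestin+ and CD133+ cells was -0.39 with library weights and -0.0495 to 0.78 without 1 library, lowest without CD133+ replicate 2, and Spry4 was -0.25 with library weights. Spry2 between CD133+Nestin+ and Nestin+ cells was -0.74 to 0.0441 without 1 library, highest without CD133+Nestin+ replicate 1, and 0.0042 without Nestin+ replicate 3. Median centring and quantile normalization moved the median of all genes between Nestin+ and CD133+ cells to 0.12 and 0.13, against -0.02. Of all genes, 395 were higher there in the main fit, 978 with the block, 696 with quantile normalization and 1331 with library weights. With 3 libraries a group, an exact permutation test of 1 value cannot go below p = 0.1.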
